A study of Homo sapiens with 9 samples.

Results

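The subject of these results is the Ago binding of 2 transcripts, PRSS23 and CD46, whose 3′UTRs held the peaks ranked 3 and 4 by score among all peaks of the miR-342-3p mimic. Members were all peaks, in both deposited lists, whose midpoint lay on the strand of the gene within the annotated gene body of PRSS23 or CD46. There were 5 such peaks of 8460 in all, of which PRSS23 held 1 and CD46 held 4, and all 5 were in the miR-342-3p list of 3450 peaks. Among the 5010 peaks of the miR-342-5p list, 0 lay in PRSS23 and 0 in CD46. Both genes were chosen by the score of their peaks and by the lack of a seed site under them, so their scores and missing sites are given as a description without a test.

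The peaks come from Ago-HITS-CLIP, in which Argonaute (Ago) proteins are fixed to their RNA by UV light, pulled down with an antibody, and the RNA that comes with them is sequenced. The cells were MDA-MB-231HM, a highly metastatic derivative of a human triple-negative breast cancer cell line, of WT genotype, transfected at 20 nM for 48 h with a miR-342-3p mimic, a miR-342-5p mimic or a negative control miRNA, with 3 replicates of each and 9 libraries in all. The score of a peak was obtained over the negative control libraries, which both lists share. Each list merges its replicates, so the depth is unknown, no value has a replicate error, and how far the libraries differed cannot be given.

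A miRNA guides Ago to transcripts mainly through its seed, the bases from position 2 to position 8 counted from its 5′ end, and pairing of its 3′ part can add to or partly replace the seed. Ago bound in a 3′UTR commonly lowers the stability or translation of the transcript, which was not analysed here. PRSS23 encodes a secreted serine protease. CD46 encodes a membrane protein found on nearly all nucleated cells, a cofactor through which factor I cleaves the complement fragments C3b and C4b, so that the cell is spared from attack by its own complement.

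The mature miR-342-3p sequence of RefSeq, with the build GRCh38.p14, is printed 3 times to show which part of it each peak could pair with. Capitals mark the seed, then positions 4 to 9, which the repeat under the PRSS23 peak matched, and then positions 14 to 20, which the CD46 3′UTR peak matched.
miR-342-3p, seed: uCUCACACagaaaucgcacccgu
miR-342-3p, positions 4 to 9: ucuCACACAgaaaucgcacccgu
miR-342-3p, positions 14 to 20: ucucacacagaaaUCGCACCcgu

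Of the transcripts, 4 stretches of 30 nt from the GRCh37 genome are shown, read on the plus strand, on which both genes lie. In the first, at chr11:86519923-86519952 around the summit of the PRSS23 peak, capitals mark an unbroken alternation of G and U. In the second, at chr1:207967680-207967709 around the summit of the CD46 3′UTR peak, they mark the complement of positions 14 to 20. In the third, at chr1:207967639-207967668 and nearer the start of that CD46 peak, they mark the complement of positions 1 to 6. In the last, at chr1:207934726-207934755 in exon 5 of CD46, they mark the complement of positions 11 to 16. This was the longest pairing outside the seed in the genomic windows of both peaks in that exon.
PRSS23, G/U run: cacGUGUGUGUGUGUGUGUGUGUGUGUGUa
CD46, match to positions 14 to 20: gugccacuucauGGUGCGAagugaacacug
CD46, match to positions 1 to 6: cuuucauaagaaGUGAGAggacucugacag
CD46, exon 5: uuggagagagcaCGAUUUauuguggugaca

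The PRSS23 peak had a score of 2295 and the CD46 3′UTR peak a score of 1924, so that the former was 1.19 times the latter. These were 95.6 and 80.2 times the median score of 24.0 over the miR-342-3p list. The peaks around them in rank were MIR342, the miR-342 precursor gene itself, at 6398, and the 3′UTR of DUSP6, a phosphatase that inactivates ERK, at 5334 above. The MIR342 window held the mature miR-342-3p sequence itself, with an edit distance of 0, against 10 at PRSS23 and at the CD46 3′UTR peak. Whether the MIR342 reads came from the mimic was not tested. Below came an unannotated stretch of chromosome 10 (chr10:50534963-50535012, minus strand) at 1162, a coding exon of MSN, which encodes moesin, at 1134, and a coding exon of NCOA4, a cargo receptor for ferritin, at 1126. Among the 1163 miR-342-3p peaks in 3′UTRs, only that of DUSP6 scored higher than PRSS23. In rank, the 2 genes stand between a steep fall from DUSP6 and a second fall to the chromosome 10 peak.

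**Figure D1:**
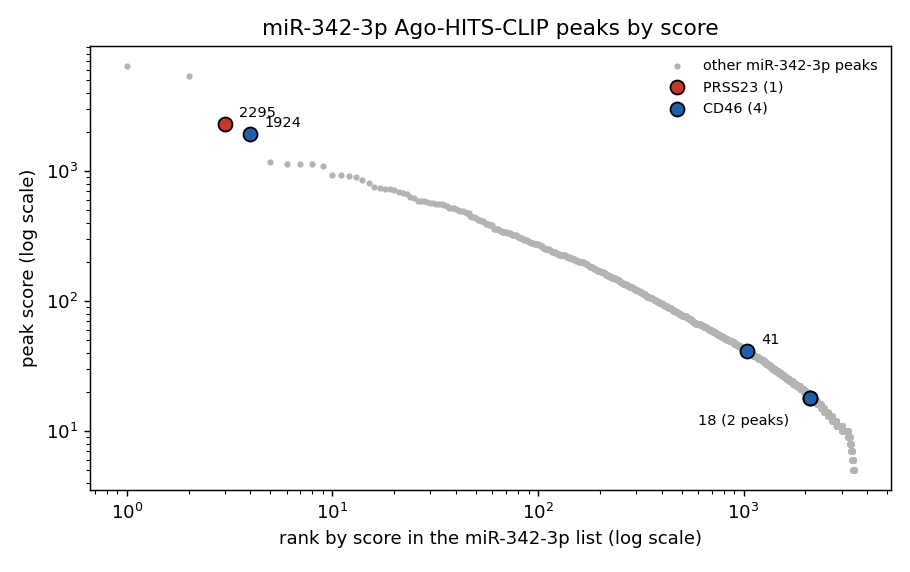
Score of every miR-342-3p peak (y axis, log scale) against its rank in the list (x axis, log scale), with the PRSS23 peak in red and the CD46 peaks in blue. PRSS23 (2295) and the CD46 3′UTR peak (1924) lie between DUSP6 (5334) and the peak at rank 5 (1162), while the other CD46 peaks scored 41, 18 and 18.

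PRSS23 (ENSG00000150687) spans chr11:86502101-86663952 in the annotation, but its MANE Select transcript has 2 exons and ends at position 86522275. The peak, chr11:86519889-86519971, was 83 nt wide with its summit at 86519936. It began 52 nt and ended 134 nt after the stop codon of that transcript, near the start of a 3′UTR of 2438 nt in a single exon. Of the 2 basic coding transcripts of the gene, the MANE Select one held the peak in its 3′UTR. The other skips this stretch as an intron and runs on to a last exon far downstream.

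No 7mer or 8mer seed site for miR-342-3p (GUGUGAGA, or the 7 bases at either end of it) lay within 50 nt of the PRSS23 summit. In that window of 101 nt, 68.3% of the bases were G or U. The alternating run in capitals above was 26 nt long, from 86519926 to 86519951, which is 89 to 114 nt after the stop codon. It lay wholly inside the peak, which extended 37 nt before and 20 nt beyond it, and the summit was 2 nt from the centre of the run. The complement of positions 4 to 9, UGUGUG, occurs in the run in 10 registers, and 6 nt was also the length of the longest uninterrupted Watson-Crick pairing in the window. A second stretch of this length, outside the seed, matched positions 9 to 14 at 86519976 to 86519981, centred 42 nt from the summit and beyond the end of the peak. In 11 places a 7-nt word of the window differed by 1 base from GUGUGAG, the full complement of the seed.

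Among all miR-342-3p peaks, 10.3% (355 of 3450, 95% Wilson confidence interval (CI) 9.32–11.3%) had an alternating G/U run of at least 12 nt in their window. Among the 4963 miR-342-5p peaks outside the mitochondrial chromosome, 5 did, which is 0.101% (CI 0.043–0.236%). These intervals cover counting error only, and peaks are not replicates. A run as long as that of PRSS23 was present at 84 of the 1163 miR-342-3p 3′UTR peaks (7.22%). PRSS23 scored highest of the 84, whose median score was 24.5 and whose lowest was 7. The second was CRIM1 at 477, with an 8mer site beside its run. BHLHE40 at 274 and SFN at 227, both without a site, came next. These 3 names were chosen after their values were seen. Among these 84 peaks, only that of PRSS23 had a score above 477. PRSS23 was chosen by score, so its first place here is a description only.

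Across the genome annotation, 3′UTRs held 1128 alternating G/U runs of at least 12 nt, and 225 of them (19.9%) lay under a miR-342-3p peak, against 2 (0.177%) under a miR-342-5p peak. By length, 108 of 696 runs from 12 to 19 nt had a peak (15.5%), 32 of 147 from 20 to 25 nt (21.8%), 19 of 61 from 26 to 29 nt (31.1%), 35 of 133 from 30 to 39 nt (26.3%) and 31 of 91 of 40 nt or more (34.1%). Their median scores were 38.0, 39.5, 48.0, 21.0 and 24.0 in that order. PRSS23 had the second highest score among all of these, below the run of 13 nt at DUSP6, which has a 7mer site as well. Within PRSS23 itself, 3 more runs of 13, 25 and 36 nt lay in the intron that only the longer transcript has, and none had a peak. So the sole run that lies in an exon of the gene was also the sole run under a peak, though the share of intronic runs with a peak was not counted.

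Other matches to the miRNA in PRSS23 had no peak either. The gene body held 33 7mer or 8mer sites for miR-342-3p, 31 of them in introns and 0 in a coding exon or 3′UTR, and 0 of the 33 had a peak. No share of intronic sites under a peak was counted over all genes, so this is a description only. The PRSS23 gene body held 13 sites for miR-342-5p, also with 0 under a peak. Of these, 2 were in annotated 3′UTRs, including an 8mer at 86521310 to 86521317 in the same 3′UTR as the miR-342-3p peak. In the spliced MANE Select mRNA of 3713 nt, 2 stretches paired with 7 nt of miR-342-3p, namely positions 6 to 12 in the coding sequence and positions 8 to 14 at 789 nt after the stop codon. Neither lay under a peak, so the longest contiguous pairing in this mRNA was elsewhere than the peak.

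RNAduplex, which finds the hybrid of lowest predicted free energy for a pair of RNAs, gave −18.1 kcal/mol for miR-342-3p and the PRSS23 window. The hybrid had 16 base pairs, 6 of them in the seed with position 3 unpaired. Of the 16, 14 used bases of the G/U run. On the opposite strand of the same window, where the run reads as alternating A and C, the energy was −8.9 kcal/mol. An energy at least as low was reached by 30.5% of all miR-342-3p peaks and by 3.49% of miR-342-5p peaks, and by 34.0% of the miR-342-3p 3′UTR peaks. The median was −16.0 kcal/mol over the miR-342-3p list, −19.1 kcal/mol over peaks with a seed site, and −18.0 kcal/mol over the 161 3′UTR peaks that had a run of at least 12 nt and no seed site. PRSS23 therefore lay near the median energy for its own kind of peak. Its score of 2295, by which it was chosen, was the maximum in that group, of which the median score was 33.0.

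CD46 (ENSG00000117335) spans chr1:207925382-207968858, and its MANE Select transcript has 13 exons with a 3′UTR of 2027 nt spread over 2 of them. The 3′UTR peak, chr1:207967636-207967718, was 83 nt wide, the same as at PRSS23, with its summit at 207967687 in exon 13. It began 814 nt and ended 896 nt after the stop codon in the spliced transcript. CD46 is spliced near its 3′ end into forms that differ in their cytoplasmic tail and so in their stop codon. The peak was in the 3′UTR of 12 of the 13 basic transcripts whichever stop codon they used, and began 814 nt after it in 3 transcripts, 700 nt after it in 5 and 696 nt after it in 4. In the remaining transcript the 3′ end lies before the peak.

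The CD46 3′UTR peak had neither a seed site nor a G/U run, as its longest alternation was 3 nt. Its longest pairing was the 7-nt word GGUGCGA, complementary to positions 14 to 20 of miR-342-3p, at 207967692 to 207967698 with its centre 8 nt from the summit. GUGAGA, complementary to positions 1 to 6, was present 34 nt before the summit. The word GGUGCGA occurs once in the whole gene body of 43477 nt on its strand, under this peak. This word differs at 2 bases from UGUGAGA, the 7mer for positions 1 to 7, and at 6 bases from GUGUGAG, the full complement of the seed. How often other windows hold a word this close was not counted.

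Pairing of at least 7 nt beyond position 8 was found at 5.77% of all miR-342-3p peaks (199 of 3450, CI 5.04–6.6%) and at 1.71% of miR-342-5p peaks (85 of 4963, CI 1.39–2.11%). Seed sites were present at 20.6% of miR-342-3p peaks (712 of 3450). Each 7-nt word of the miRNA was then searched in turn, over 17 registers, in the windows of the miR-342-3p list. The complement of positions 3 to 9 was the most frequent (23.0% of windows, against 0.435% of the opposite strands), followed by positions 2 to 8 (17.2%) and 4 to 10 (12.4%). The share then fell to 0.116% at positions 10 to 16, and rose again to 2.09% at positions 14 to 20 (72 windows), against 0.087% of the opposite strands (3 windows) and 0.141% of the miR-342-5p windows (7 windows). Over the whole list, the word at the CD46 peak was thus the most frequent of those that start beyond position 8. Among the 1163 3′UTR windows alone, positions 15 to 21 were more frequent (19 windows, 1.63%) than positions 14 to 20 and 9 to 15 (15 windows, 1.29% each).

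**Figure D2:**
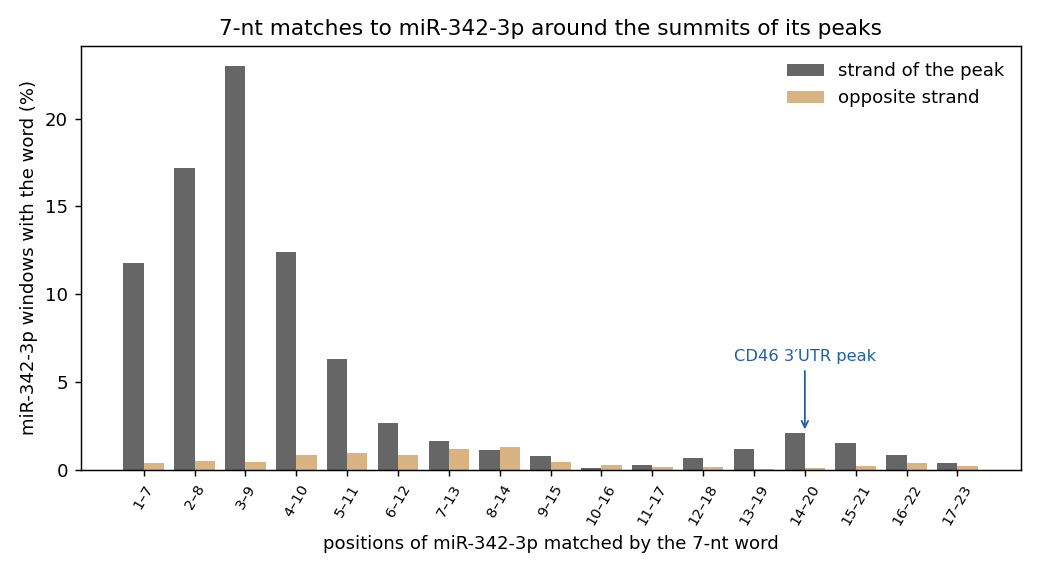
Share of the 3450 miR-342-3p windows (y axis, percent) that hold the complement of each 7-nt stretch of miR-342-3p (x axis, positions of the miRNA), on the strand of the peak (grey) and on the opposite strand (tan). The tall bars are at words that overlap the seed, the highest being 23.0% at positions 3 to 9. A small second rise at positions 14 to 20 (2.09% against 0.087%) includes the CD46 3′UTR peak.

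Among the 72 windows with the match to positions 14 to 20, CD46 had the highest score, the next being 291 at ATP6AP1, a gene named after its value was seen, and the median being 32.0. The first place of CD46 follows from its choice by score. The match lay within 15 nt of the summit in 65 of the 72, while 31 of the 95 places a 7-nt word can take in a window are that close. A seed site was present as well in 9 of them. By location, 41 were in coding exons and 15 in 3′UTRs.

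The predicted hybrid of miR-342-3p with the CD46 3′UTR window had an energy of −15.3 kcal/mol and 16 base pairs, of which 5 were in the seed with positions 3 and 7 unpaired. It did not use the 7-nt word for positions 14 to 20: in that hybrid, 6 of the 7 bases paired with positions 1, 2, 4, 5, 6 and 8 instead. The same bases can thus be placed against either end of the miRNA, and which of these Ago held cannot be told from a peak. On the opposite strand, the energy was −9.8 kcal/mol. An energy as low as that of CD46 was found at 56.9% of all miR-342-3p peaks and 61.2% of those in 3′UTRs, and at 13.0% of miR-342-5p peaks. The 727 miR-342-3p 3′UTR peaks with neither a seed site nor a run had a median energy of −14.8 kcal/mol and a median score of 24.0. CD46, chosen by score, had the highest score of them.

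**Figure D3:**
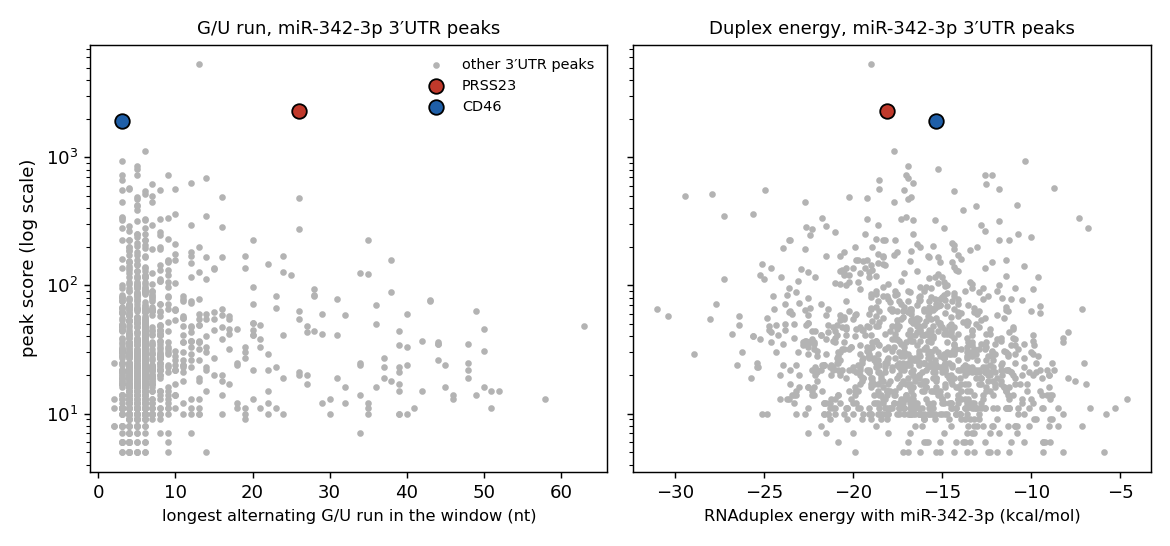
Score (y axis, log scale) of the 1163 miR-342-3p 3′UTR peaks against their longest alternating G/U run in nt (left) and against the RNAduplex energy with miR-342-3p in kcal/mol (right), with PRSS23 in red and CD46 in blue. PRSS23 (26 nt, −18.1 kcal/mol) and CD46 (3 nt, −15.3 kcal/mol) lie far apart in run length and inside the bulk of the energies.

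Along the spliced mRNAs, the peak window of PRSS23 had rank 2 by energy among 36 windows of 101 nt laid end to end from the summit, and rank 1 among the 23 in the 3′UTR. The lowest, −24.0 kcal/mol, was centred 204 nt before the end of the stop codon and had no peak. The median of the 36 was −9.7 kcal/mol. In CD46, the peak window had rank 4 of 32 and rank 2 of the 20 in the 3′UTR, with a median of −8.8 kcal/mol. The lowest of these CD46 windows, −16.2 kcal/mol in the coding sequence, had no peak at its centre. With windows moved in steps of 5 nt, the lowest in the CD46 3′UTR was −17.6 kcal/mol, centred 698 nt after the stop codon and before the peak. Both peaks were thus among the better predicted sites of their own mRNA, though in neither mRNA was the best predicted site the one with the peak.

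**Figure D4:**
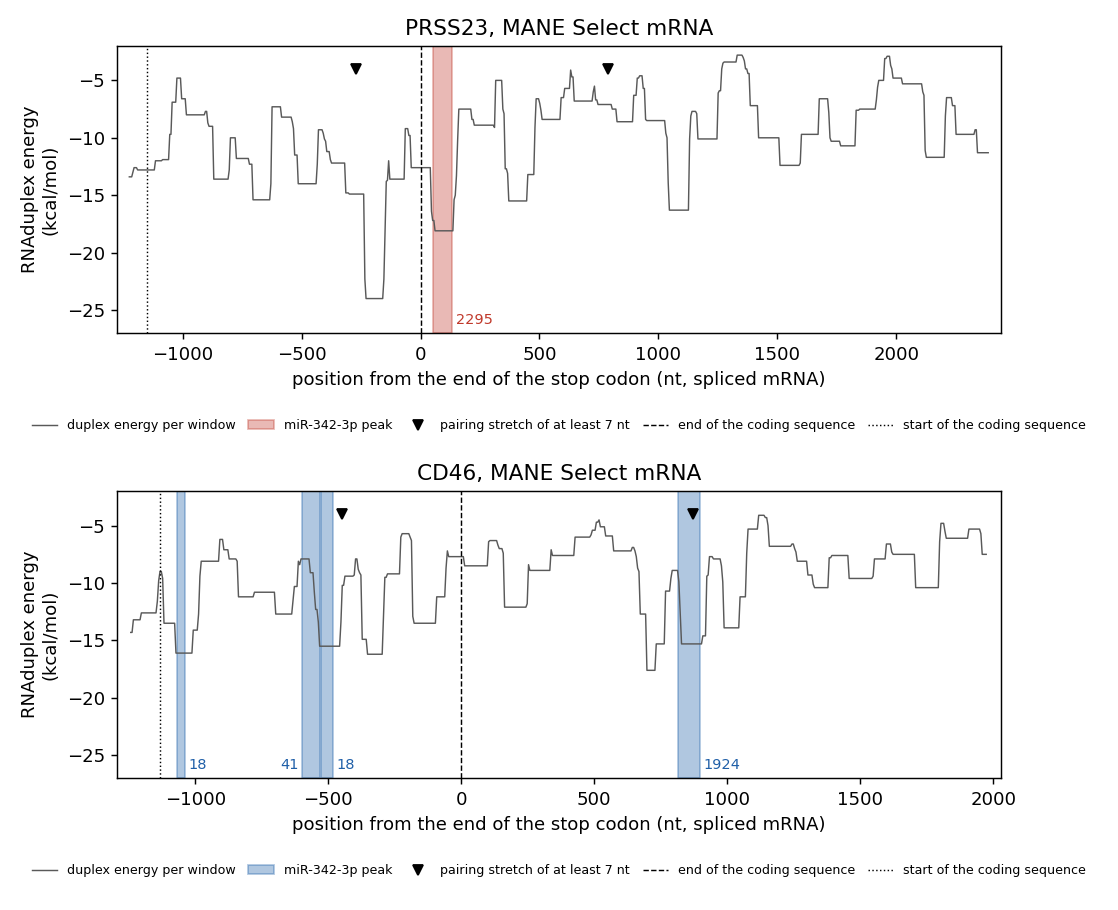
RNAduplex energy with miR-342-3p in kcal/mol (y axis) for windows of 101 nt along the spliced MANE Select mRNAs of PRSS23 (top) and CD46 (bottom), by distance of the window centre from the end of the stop codon in nt (x axis), with peaks shaded and labelled by score and with triangles at pairing stretches of at least 7 nt. The PRSS23 peak (2295) lies at a trough of −18.1 kcal/mol while the deepest trough, in the coding sequence, has no peak, and the CD46 peak of 1924 lies over 1 of the 2 triangles of that mRNA.

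In addition to its 3′UTR peak, CD46 had 3 smaller peaks in coding exons. Exon 5 held a peak of 69 nt with a score of 41 (chr1:207934655-207934723, rank 1039) and, 2 nt further on, a peak of 46 nt with a score of 18 (chr1:207934726-207934771, rank 2108). Exon 1 held a peak of 32 nt that also scored 18 (chr1:207925623-207925654, rank 2107) and ended at the last base of the exon. The 3′UTR score was 46.9 times the second one and 96.2% of the sum of the 4. The peak at 41 was 1.71 times the list median and both others were below it. None of the 3 had a seed site or an alternation longer than 5 nt.

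Predicted pairing differed among the coding peaks. The peak at 41 had an energy of −9.1 kcal/mol, which 96.3% of miR-342-3p peaks reached and which was no lower than the −9.4 kcal/mol of its opposite strand. The neighbouring peak at 18 had −15.5 kcal/mol, close to the 3′UTR peak. Both genomic windows shared the 6-nt match to positions 11 to 16, centred 47 nt beyond the summit of the former and 25 nt before the summit of the latter. The genomic window of the exon 5 peak at 18 crossed into the intron. In the spliced mRNA, its longest pairing outside the seed was 7 nt, at positions 10 to 16, centred 41 nt beyond the summit and outside the peak. For the exon 1 peak, the genomic window crossed into the intron and gave −17.4 kcal/mol. In a window of the spliced mRNA, chosen after seeing that this peak ends at an exon boundary, the value was −16.1 kcal/mol.

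No seed site of either mimic lay in an exon of the MANE Select transcript of CD46. The gene body held 6 sites of 7 or 8 nt for miR-342-3p, all in introns, and 7 for miR-342-5p, of which 6 were in introns, and 0 of the 13 had a peak. How often such sites have a peak in other genes was not counted. It held 0 alternating G/U runs of at least 12 nt. In the spliced mRNA of 3320 nt, the only pairing stretches of at least 7 nt were the one under the 3′UTR peak and one for positions 10 to 16 in the coding sequence. The latter began 449 nt before the end of the stop codon, not under a peak but within the spliced window of the exon 5 peak with a score of 18.

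Outside the gene bodies, the nearest miR-342-3p peaks on the same strand were 522443 nt before PRSS23, in EED with a score of 16, and 5951951 nt after it, in FAT3 with a score of 34. On the opposite strand, FZD4, a Wnt receptor whose 3′UTR lies opposite the long form of PRSS23, had a pair of 3′UTR peaks inside the annotated gene body, with scores of 119 and 46. They were some way downstream of the MANE Select transcript, at chr11:86660830-86660893 and chr11:86660896-86660991. For CD46, the nearest on the same strand were 1018716 nt before it, in MAPKAPK2 with a score of 55 and a run of 26 nt, and 2043401 nt after it, in UTP25 with a score of 23.

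Repeated sequence bears on where reads can be placed. The 30 nt around the PRSS23 summit, which are nearly all repeat, had 100 exact copies in the genome, whereas the whole peak of 83 nt had 1 copy. Around each of the 4 CD46 summits, the 30 nt had 1 copy, and so did the whole 3′UTR peak of 83 nt. Of the 20 highest miR-342-3p peaks, 17 had 1 copy, and the chromosome 10 peak at rank 5, with a run of 38 nt, had the most, 1932. How the aligner placed reads within the repeat was not tested.

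Lists of genes related in function to PRSS23 and CD46 differed in how many members had a peak. For comparison, 11.8% of annotated protein-coding genes (2371 of 20136) had a miR-342-3p peak, and also 11.8% (2376 of 20136) a miR-342-5p peak. Of 27 other complement genes, from regulators such as CD55 and CD59 to the components C3 and C5, 0 had a miR-342-3p peak, and 1 had a miR-342-5p peak, C1QBP with 127 in a coding exon. The list held 36 other trypsin-like and related serine proteases, not all of which were found in the annotation. Of these, 1 had a miR-342-3p peak, PLAU, which encodes urokinase, with 338 in the 3′UTR at a 7mer site. For miR-342-5p, 2 did, PLAU with 264 and PLAT with 156, both in coding exons.

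Among 14 inhibitors of such proteases and their receptors, 3 had a miR-342-3p peak and 5 a miR-342-5p peak. SPINT2, an inhibitor of membrane-bound proteases, had a miR-342-3p score of 102 in its 3′UTR at a 7mer site, and SERPINB6, a serpin, one of 37 in its 3′UTR without a site. F2RL1, a receptor cut by trypsin, had 36 in a coding exon. In the miR-342-5p list, F2R, the thrombin receptor, had 38 in its 3′UTR and SERPINB1, another serpin, had 11 in its 3′UTR. Of 8 membrane partners and binding proteins of CD46, 4 had a miR-342-3p peak and 0 of these peaks were in a 3′UTR. They were ITGB1, an integrin subunit, with 671, ITGA3 with 280, JAG1, a Notch ligand that binds CD46, with 133 and SPTBN1 with 124. For miR-342-5p, 4 of the 8 had a peak, the highest being 208 in SPTBN1. Genes named here for coding peaks were chosen after their values were seen. None of the related genes reached the score of PRSS23 or CD46.

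Whether the high scores followed the abundance of these mRNAs, which the lists do not give, was not tested. Since both lists set a mimic over the same negative control, a peak in one list and none in the other shows only that no peak passed the score minimum of 5 there, and the difference between the mimics could not be tested.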

How the data were processed

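Ago-HITS-CLIP libraries were made from MDA-MB-231HM cells. The submitters' processing notes name cutadapt 1.13, TopHat2 2.0.13, UMI-tools, MACS2 2.1.1.20160309 and hg19. The authors called peaks for either miR-342 mimic against the negative control and deposited 2 lists that merge the 3 replicates, with a score per peak, described as reads above background, of at least 5. How libraries were scaled to each other is not given in the sources used here.

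Peaks were placed by midpoint and strand on GRCh37 with GENCODE release 44 (mapped to GRCh37) basic transcripts, giving a 3′UTR precedence over a coding exon and an intron the lowest precedence, with coding parts taken from protein-coding transcripts. The stop codon was counted as coding, and starts are printed 1-based. No sequence window was made for 47 mitochondrial peaks of the miR-342-5p list. Windows held 50 nt on each side of the summit. Seed sites, alternating G/U runs (minimum 12 nt) and Watson-Crick stretches in any register were sought on the strand of each peak. Energies were from RNAduplex (ViennaRNA 2.7.2). Python 3.11.15, numpy 2.4.6, scipy 1.17.1, pysam 0.24.0, edlib 1.3.9.post1, samtools 1.23.1 and matplotlib 3.10.9 were used. The search functions were tested on simulated windows. The pairing searches gave the same length as an exhaustive search, and the run search found the planted run, in 500 of 500 windows each.

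Members and gene lists were chosen with earlier results of these data known, and no test was made. Named were PRSS23 and CD46, the peaks ranked directly around them, listed genes with a 3′UTR peak, and neighbouring genes, with other names marked in the text. Of 37 listed proteases, 36 were found in the annotation. Alternatives changed the score minimum, strand, overlap, window, run length, G:U pairs, miRNA part and comparison list.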

Additional observations from a re-analysis of the deposited data

How the results depend on the processing

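No paired analysis was possible because each list merges its replicates, so no replicate could be left out either. Of 53 alternatives over 23 results, 37 left the value as it was. With both strands of the gene body, PRSS23 had 3 miR-342-3p peaks, since FZD4 lies opposite, and with a score of at least 50, CD46 had 1. Allowing G:U pairs lengthened the PRSS23 pairing to 7 nt, and allowing 1 interruption lengthened the CD46 3′UTR alternation to 6 nt. With positions 9 to the end of the miRNA alone, the energies were −9.4 kcal/mol at PRSS23 and −12.8 kcal/mol at the CD46 3′UTR peak. No energy was computed for the 5′ part alone. On the opposite strand, the energies with the whole miRNA were −8.9 and −9.8 kcal/mol. In spliced windows, an alternative chosen after seeing the data, the pairing outside the seed was 4 nt at the exon 1 peak, whose energy became −16.1 kcal/mol, and 7 nt at the exon 5 peak with a score of 18. The share of miR-342-3p peaks with a G/U run was 19.0% for runs of at least 8 nt and 6.26% for runs of at least 20 nt. Among miR-342-5p 3′UTR peaks, 2.65% reached the PRSS23 energy, 11.9% the CD46 energy and 1.61% the CD46 pairing outside the seed. With the depth unknown, no interval can be given for a score, and the lack of a peak may lie below the score minimum.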
